A study of Mus musculus with 6 samples.

Results

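Sites that lost accessible chromatin with both MS-275 and CXD101 were examined in monocytic myeloid-derived suppressor cells (M-MDSCs). They were chosen by their measured values: a peak of vehicle over MS-275 was kept where it overlapped a peak of vehicle over CXD101 by at least 1 base. This selected 351 of 691 peaks (50.8%) in the MS-275 lost list and 340 of 693 peaks (49.1%) in the CXD101 lost list, out of 11800 peaks in the 6 lists of the series. Both comparisons share the vehicle libraries, so the overlap is a selection and not a result.

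The cells were CD11b+ Ly-6C hi Ly-6G- and were sorted by flow cytometry from Hepa 1-6 tumors, a mouse hepatoma line grown in the liver of female C57BL/6J mice of wild-type genotype. The mice had been enrolled only if their blood held a high proportion of MDSCs. They received vehicle (DMSO, PEG300 and PBS), MS-275 or CXD101 by daily intraperitoneal injection, both inhibitors at one dose, and each group gave 2 ATAC-seq libraries. The authors pooled the libraries of a group before calling peaks, so every value below is 1 value per group, with no spread between replicates and no replicate check.

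Class I histone deacetylases remove acetyl groups from histone tails, and MS-275 and CXD101 inhibit HDAC1, HDAC2 and HDAC3 of this class. Histone acetylation is commonly found at open promoters and enhancers, and ATAC-seq marks such sites because the transposase cuts DNA that is not wrapped in nucleosomes. AP-1, a dimer of Fos and Jun family proteins, binds enhancers in myeloid cells, where the lineage factor PU.1 keeps many sites open.

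The AP-1 motif searched was TGACTCA on either strand. The 6 sites below had the highest smaller fold of both lists among those with a match within 50 bp of the summit. They are shown because the motif lay close to the called summit. Sites on 1 chromosome were not eligible for either set of AP-1 sites, and 1 pair there had a higher smaller fold than 4 of the 6 shown here. Each is 200 bases of mm10, plus strand, with the base of the MS-275 list summit at position 100, and capitals mark the AP-1 matches. A start is the nearest start of a protein-coding transcript, and for Crybg3 it lies inside the gene.
Crybg3, 0.299 kb after the start (chr16:59529793-59529992): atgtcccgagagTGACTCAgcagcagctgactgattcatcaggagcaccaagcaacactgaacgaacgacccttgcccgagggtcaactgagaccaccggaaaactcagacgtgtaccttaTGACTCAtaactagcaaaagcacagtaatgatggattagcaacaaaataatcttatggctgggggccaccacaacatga
Myo5a intron (chr9:75080740-75080939): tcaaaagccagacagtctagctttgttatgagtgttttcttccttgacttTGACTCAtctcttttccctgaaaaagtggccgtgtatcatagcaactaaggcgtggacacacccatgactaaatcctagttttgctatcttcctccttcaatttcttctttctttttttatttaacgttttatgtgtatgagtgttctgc
Kif13a, 29.6 kb before the start (chr13:46959374-46959573): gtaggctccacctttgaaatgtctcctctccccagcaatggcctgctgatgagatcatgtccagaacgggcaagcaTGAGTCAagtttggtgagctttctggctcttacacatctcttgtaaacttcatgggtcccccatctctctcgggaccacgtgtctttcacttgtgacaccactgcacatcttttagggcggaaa
Dusp22, 56.0 kb before the start (chr13:30603878-30604077): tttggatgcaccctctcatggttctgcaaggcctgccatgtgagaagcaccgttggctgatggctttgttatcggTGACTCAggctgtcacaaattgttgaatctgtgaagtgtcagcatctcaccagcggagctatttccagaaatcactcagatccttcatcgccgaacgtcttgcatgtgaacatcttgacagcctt
Slc25a13, 13.8 kb before the start (chr6:6230920-6231119): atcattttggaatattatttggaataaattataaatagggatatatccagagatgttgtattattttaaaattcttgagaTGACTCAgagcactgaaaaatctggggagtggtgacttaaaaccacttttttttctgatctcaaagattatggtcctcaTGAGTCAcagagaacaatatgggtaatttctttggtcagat
Stx3 intron (chr19:11813077-11813276): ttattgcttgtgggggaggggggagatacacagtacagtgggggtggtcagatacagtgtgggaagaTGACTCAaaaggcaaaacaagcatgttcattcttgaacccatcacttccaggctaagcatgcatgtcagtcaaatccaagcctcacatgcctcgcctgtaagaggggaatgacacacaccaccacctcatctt

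At the Crybg3 site the vehicle libraries held 40 tags, with a level of 9.62 for MS-275 and 9.15 for CXD101. The Myo5a site, in a gene for a myosin that carries organelles, had 30 vehicle tags and levels of 7.43 and 7.04. The Stx3 site, in a gene for a membrane fusion protein, had 42 vehicle tags and levels of 10.5 and 12.3. Between genes, the Dusp22 site held 49 vehicle tags against 13.5 with MS-275 and 13.2 with CXD101. The Kif13a site had 36 vehicle tags in the MS-275 list, with levels of 9.62 and 7.39, and the Slc25a13 site 37, with levels of 8.92 and 10.6. In all 6 the levels of both inhibitors lay close together and well under the vehicle.

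Most matches lay farther out. The next 4 sites had the highest smaller fold among those whose nearest AP-1 match lay 100 to 199 bp from the summit and whose window held no exon, and this set was chosen after the values were seen. Each is 300 bases of mm10, plus strand, with AP-1 in capitals, and the summit is at position 221 for Ppa1, 100 for Ric1, 248 for Slc25a33 and 91 for Trak1. The start named for Ppa1 is that of a transcript inside the gene.
Ppa1, 0.46 kb before the start (chr10:61662008-61662307): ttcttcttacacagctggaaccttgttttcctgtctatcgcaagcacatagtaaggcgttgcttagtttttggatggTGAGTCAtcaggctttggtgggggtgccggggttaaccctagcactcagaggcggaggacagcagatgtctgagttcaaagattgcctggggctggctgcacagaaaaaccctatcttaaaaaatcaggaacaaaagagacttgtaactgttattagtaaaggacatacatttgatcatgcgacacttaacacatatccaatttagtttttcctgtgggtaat
Ric1, 12.4 kb before the start (chr19:29509796-29510095): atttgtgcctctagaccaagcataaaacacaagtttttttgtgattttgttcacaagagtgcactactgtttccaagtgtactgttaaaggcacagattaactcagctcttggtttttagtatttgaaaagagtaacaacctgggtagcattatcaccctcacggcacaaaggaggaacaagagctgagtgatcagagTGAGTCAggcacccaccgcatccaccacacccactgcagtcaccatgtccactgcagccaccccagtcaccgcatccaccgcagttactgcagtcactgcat
Slc25a33, 46.6 kb before the start (chr4:149820662-149820961): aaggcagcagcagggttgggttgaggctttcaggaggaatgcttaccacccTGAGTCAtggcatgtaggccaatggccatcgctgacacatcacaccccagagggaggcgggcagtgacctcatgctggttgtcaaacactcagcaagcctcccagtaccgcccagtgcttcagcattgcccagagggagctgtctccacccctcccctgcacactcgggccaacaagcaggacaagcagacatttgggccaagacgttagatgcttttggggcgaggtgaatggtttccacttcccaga
Trak1 intron (chr9:121396113-121396412): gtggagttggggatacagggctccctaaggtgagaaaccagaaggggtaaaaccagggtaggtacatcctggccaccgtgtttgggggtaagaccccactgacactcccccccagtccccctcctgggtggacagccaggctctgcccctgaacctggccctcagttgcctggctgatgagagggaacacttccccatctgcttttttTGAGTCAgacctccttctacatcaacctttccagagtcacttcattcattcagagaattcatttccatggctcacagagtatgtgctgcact

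For contrast, the 2 sites with the highest smaller −log10 p-value and no AP-1 match inside 100 bp are shown, again as 200 bases of mm10 on the plus strand. Capitals would mark a match to any of the 16 motifs searched, and neither window held one. The Baiap2 site had an AP-1 match 99 bp from the summit, which ran past the edge of the window, and the Commd4 site had none within 500 bp.
Commd4, 10.4 kb before the start (chr9:57168681-57168880): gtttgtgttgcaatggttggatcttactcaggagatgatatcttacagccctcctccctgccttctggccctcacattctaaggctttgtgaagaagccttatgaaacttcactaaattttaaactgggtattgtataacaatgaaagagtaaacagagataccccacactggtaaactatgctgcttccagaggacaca
Baiap2 intron (chr11:119975997-119976196): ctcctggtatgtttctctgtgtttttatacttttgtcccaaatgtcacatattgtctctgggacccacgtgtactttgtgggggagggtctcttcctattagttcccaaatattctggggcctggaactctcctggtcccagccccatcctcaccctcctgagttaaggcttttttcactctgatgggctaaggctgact

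Fold enrichment is the authors' ratio of the vehicle pileup to the inhibitor level at the summit, with 1 added to both. The whole number of vehicle tags and the inhibitor level, at vehicle depth, were solved from the fold and its p-value. Among the 351 members of the MS-275 list the fold ran from 1.4 to 8.85 with a median of 3.18, and among the 340 of the CXD101 list from 1.39 to 7.07 with a median of 2.91. Peaks of the MS-275 lost list outside the overlap had a median fold of 3.24, and those of the CXD101 list 2.62. The vehicle libraries held a median of 49 tags at the members of either list, with a range of 18 to 217 in the MS-275 list. The median level was 13.1 with MS-275 and 15.0 with CXD101. Members were wider than the peaks outside the overlap, with a median of 422 bp against 266 bp in the MS-275 list and 309 bp against 231 bp in the CXD101 list. All of these measures come from the comparisons that chose the members and are given as a description.

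The members merged into 275 loci that covered 114783 bases, and 94 loci held more than 1 summit in a list. Nearest summits of both lists formed 315 partner pairs. In 89 pairs both summits fell on the same base, and in 89 of 89 the vehicle tags solved from each list were identical. The plot of folds in both lists shows the pairs. The fold was at least 4 in both lists in 41 pairs (13.0%), and 31 pairs were under 2 in both.

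**Figure D1:**
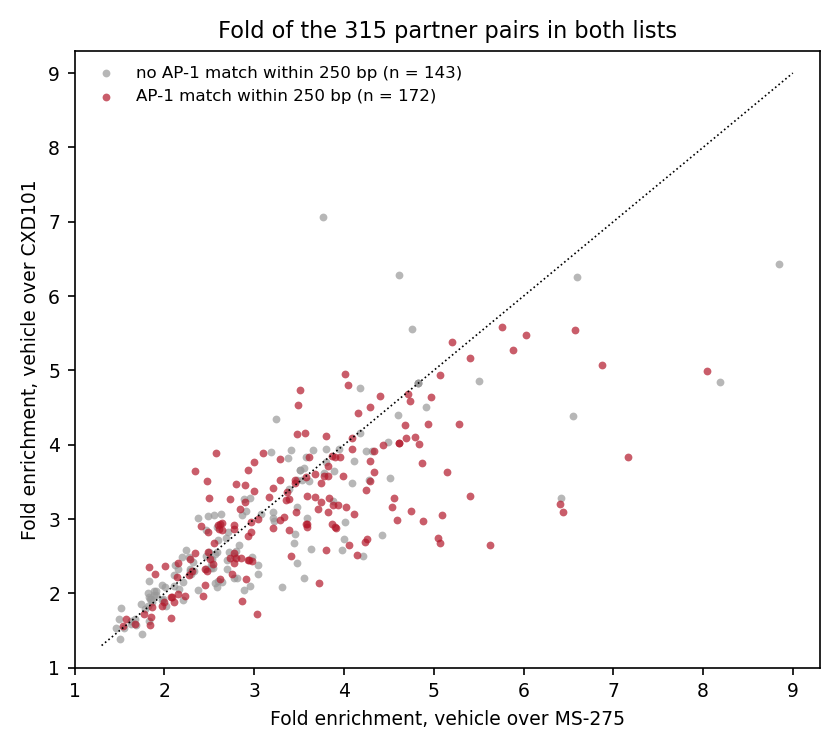
Fold enrichment of the partner pairs in the list of vehicle over MS-275 (x axis) and of vehicle over CXD101 (y axis). Each point is 1 pair, red where an AP-1 match lay within 250 bp of the MS-275 list summit (172 pairs) and grey where none did (143 pairs), and the dotted line marks equal folds. Most pairs lie near the line, and the points farthest to the right fall below it.

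The strongest shared loss lay between genes, 10.4 kb before the start of Commd4, on chromosome 9 from 57168325 to 57168933. One summit of this site held 62 vehicle tags, against a level of 6.12 with MS-275 and 8.79 with CXD101. Its fold was 8.85 with MS-275 and 6.43 with CXD101. A further summit of the same site held 46 vehicle tags, with levels of 6.12 and 6.51. The genome background was 5.84 tags, and all but the CXD101 level of 8.79 lay near it.

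Several of the other leading sites lay inside genes. In an intron of Baiap2, which encodes an adaptor of the actin cytoskeleton, 63 vehicle tags stood against levels of 8.74 and 10.6 (chromosome 11, 119975951 to 119976528). An intron of Anpep (chromosome 7, 79858773 to 79859487), the gene of the myeloid surface peptidase CD13, held 2 summits. At one of them 80 vehicle tags stood against 16.6 with MS-275 and 17.4 with CXD101, and the folds were 4.60 and 4.40. The other had 84 vehicle tags, and there the CXD101 level of 24.6 was well above the MS-275 level of 12.2.

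Introns of Pxk and Bahcc1 had 73 and 80 vehicle tags in the MS-275 list, with folds of 4.94 and 4.84 for MS-275 and 4.28 and 4.02 for CXD101. In Ttc7b, 1.10 kb after a start site, 72 vehicle tags stood against 10.1 with MS-275 and 15.7 with CXD101. The window of that site was 72.1% repeat sequence by the assembly's masking, as was 72.6% of one 55.5 kb before Mtdh, so read placement there is less certain. The same holds for the Commd4 summit with 46 vehicle tags (56.7%) and for the Dop1b summit with 46 (65.2%).

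Where the vehicle pileup was lower, the fold could be as high. The site in Ppa1, the gene of a cytosolic pyrophosphatase, lay before a start site inside the gene. It had 39 vehicle tags against 5.95 and 6.16, which gave folds of 5.76 and 5.59. The sites near Ric1, Slc25a33 and Agrp and in Trak1 had 44 to 47 vehicle tags and folds of 5.17 to 6.02 in both lists. An intron of Lmf1, a lipase maturation factor, had 54 vehicle tags, with MS-275 at the background of 5.84 and CXD101 at 10.0. Rgs6 (55 vehicle tags) and Dop1b (46 vehicle tags) were likewise at 5.84 with MS-275, and at 10.6 and 8.27 with CXD101. The plot of levels at named sites sets these values side by side.

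**Figure D2:**
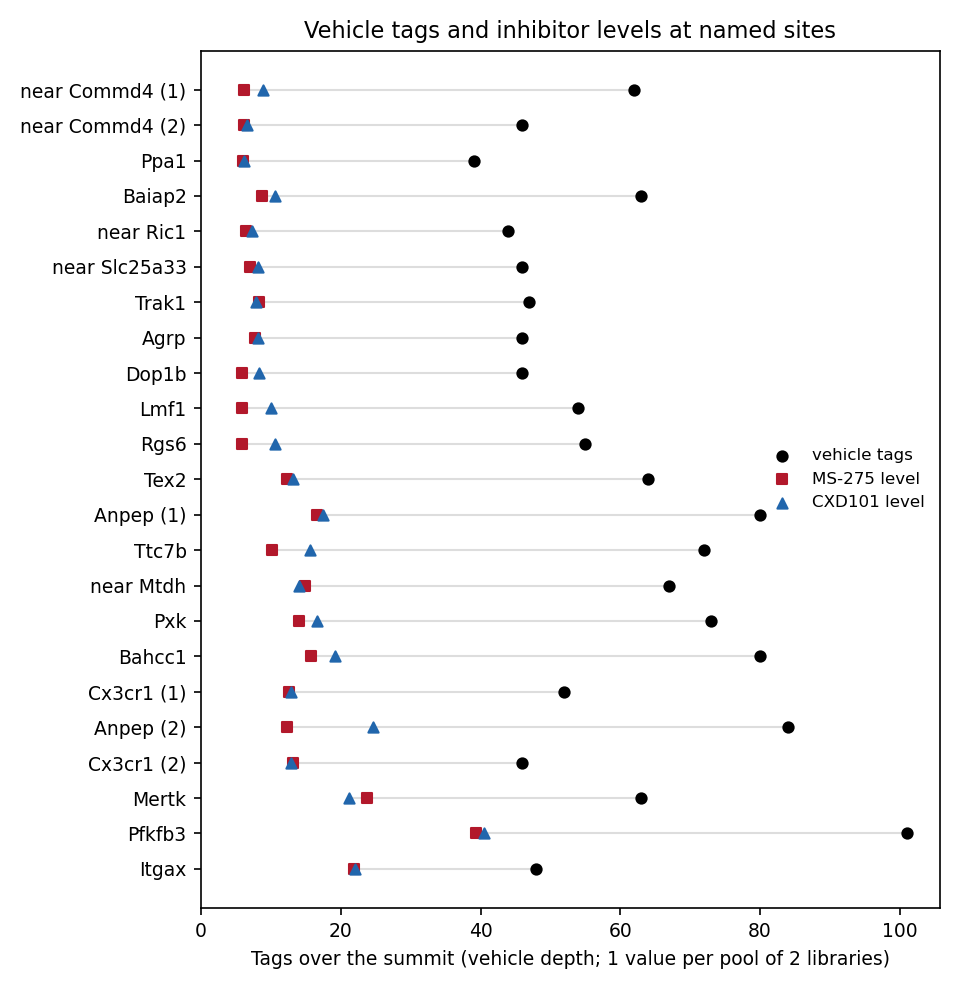
Vehicle tags (black circles), MS-275 level (red squares) and CXD101 level (blue triangles) at the summits of the strongest pairs and of the pairs in listed genes, all in tags at vehicle depth (x axis). Each symbol is 1 value for a pool of 2 libraries. In every row both inhibitor symbols lie left of the vehicle, from 5.84 to 40.5 against 39 to 101 tags.

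Of the 315 pairs, 43 had a summit within 1 kb of a protein-coding start site. Next to Ppa1, the highest smaller folds there belonged to Tchp, Stk11ip, Ankrd55, Gramd1b and Crybg3. In all of these genes the summit lay inside the annotated gene, near a transcript start within it and not at the gene's outer start. Tchp, which encodes a keratin-binding protein of the centrosome, had 2 summits with folds of 4.71 and 4.62 for MS-275 and 4.68 and 4.02 for CXD101. Stk11ip, whose product binds the kinase LKB1, also had 2 summits, with 47 and 41 vehicle tags and levels from 9.67 to 10.6. The Gramd1b site had 47 vehicle tags, 10.1 with MS-275 and 11.3 with CXD101.

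Where the vehicle pileup was highest the fold was small. A small fold passes the limit of the authors' Poisson test only at a high pileup. This relation is thus in part set by the calling and is given as a description. Of the pairs with summits within 25 bp, 38 had at least 100 vehicle tags, 18 of them in a promoter. Their median fold was 1.98 with MS-275 and 2.05 with CXD101, and the 18 in promoters had 1.88 and 1.97. The highest vehicle pileup of any member, 217 tags, lay just after the start of Grcc10, with a level of 143 and a fold of 1.51 for MS-275.

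The lists of 244 genes of pathways in these cells were set beside the members. A gene counted as reached where a member overlapped its body or the 5 kb before it, and 191 of 21728 protein-coding genes (0.879%) were reached by a member. Reached genes were long, with a median of 65.6 kb against 17.4 kb for all protein-coding genes. Of the listed genes, 5 were reached (2.05%): Cx3cr1, Itgax, Anpep, Mertk and Pfkfb3. None of the 46 myeloid factor genes, 30 MDSC effector genes, 23 MAPK feedback genes, 19 AP-1 genes or 18 genes of class I deacetylases and their partners was reached.

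Cx3cr1, the fractalkine receptor of monocytes and macrophages, was the only reached member of 23 chemokine and receptor genes. An intron (chromosome 9, 120012673 to 120013224) held 2 summits, with 52 vehicle tags against 12.6 and 12.8 at one, and 46 against 13.1 with MS-275 at the other. Itgax, which encodes the integrin CD11c, had a site 0.277 kb before its start with 48 vehicle tags, 21.9 with MS-275 and 22.0 with CXD101. Its nearest AP-1 match lay 8 bp from the summit. Mertk, a receptor for the uptake of dying cells, had a site 0.46 kb before its start with 63 vehicle tags, 23.8 with MS-275 and 21.1 with CXD101. Pfkfb3, a regulator of glycolysis, had 101 vehicle tags in an intron, 1.48 kb after a start site inside the gene, against 39.3 and 40.5. At these 4 genes the smaller fold ran from 2.14 to 3.83, and the levels of both inhibitors were nearly equal.

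Marker genes of the other cells that a tumor sort could hold were checked in the same way. None of the defining markers of hepatocytes (6 genes), T cells (7), B cells (5), NK cells (6), neutrophils (8) or erythroid cells (5) was reached by a member, nor were the 8 monocyte markers. Only 0.879% of all protein-coding genes were reached, so lists this short would mostly hold none and these zeros cannot show a difference. Itgax stood also in the dendritic cell list (1 of 6) and Mertk in the macrophage list (1 of 7). A peak list holds changed sites only, so these counts say nothing of how open a marker gene was. Fewer cells of a type and less open chromatin per cell cannot be told apart in pooled cells.

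The inhibitors were then compared at the 260 pairs whose summits lay within 25 bp. The median level was 13.3 with MS-275 and 15.0 with CXD101, where the vehicle had a median of 51 tags. MS-275 was the lower in 166 pairs (63.8%, 95% Wilson interval 57.8 to 69.4), but the gap was small. The ratio of the MS-275 to the CXD101 level had a median of 0.965 and quartiles of 0.830 and 1.06, and 235 pairs (90.4%) lay within 1.5 times of each other. The interval covers counting error only. A level was a local average in 37.0% of members of the MS-275 list and 37.4% of the CXD101 list. It was the genome background in 6.84% and 4.41%, so not every level is the tags at the summit.

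A few sites lay apart. The lowest ratio, 0.459, was in an intron of Ngef with 73 vehicle tags, 10.5 with MS-275 and 22.9 with CXD101. A site 11.2 kb after the start of Acta1 (6.47 against 14.1), a coding exon of Ubr4 (9.62 against 20.2), a site nearest to Nfe2l3 (7.87 against 15.8) and the second Anpep summit followed. A further summit of Dop1b, with 50 vehicle tags and levels of 6.12 and 12.3, tied with the last of these at a ratio of 0.497. At the other end, a site 130.2 kb before Zfp703 had 62 vehicle tags, 15.7 with MS-275 and 7.91 with CXD101, a ratio of 1.99. That site lay within 2310008N11Rik, a gene not annotated as protein-coding, and was classed as a promoter. Sites in Chn2 (11.4 against 7.21), near Emc7 (15.7 against 10.6) and in Reps1 (8.74 against 6.16) had ratios of 1.58, 1.49 and 1.42. These were named as the extremes of one ratio, so their size is a description. The MS-275 level near Acta1 and the CXD101 level in Chn2 were local averages.

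The authors also called peaks between the inhibitors directly, on the same pools. Of all MS-275 lost peaks, 2 (0.289%) overlapped a peak of MS-275 over CXD101, and both were members. Of the CXD101 lost peaks 20 did (2.89%), of which 2 were members and 18 lay outside the overlap. None of the 351 members overlapped a peak of CXD101 over MS-275, or a gained peak of either inhibitor, and 0 of 351 allows a share of up to 0.855%. The list of CXD101 over MS-275 held very few peaks, and the rule that chose the members works against a gained peak. These zeros were thus nearly fixed in advance, and no conclusion is drawn from them.

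The 2 members were the promoters of Immt (chromosome 6, 71831402 to 71831619), a mitochondrial inner membrane gene, and Xiap (chromosome X, 42068250 to 42068461), an inhibitor of apoptosis. They show a limit of the levels. At Immt the vehicle had 199 tags and MS-275 a level of 105, a fold of 1.88. In the direct list, 9 bp away, the same MS-275 libraries had 197 tags as the treated side, which is 172 at vehicle depth and 1.63 times the level read from them as the control side. At Xiap the values were 155 vehicle tags, 99.7 for MS-275 as control and 140 as treated, a ratio of 1.4. With both groups read as the treated side, vehicle exceeded MS-275 by 1.16 times at Immt and 1.11 times at Xiap.

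A pileup read as treated and one read as control are thus not the same measure at a sharp peak, and the fold of a lost peak compares one with the other. Of the members, 13 in the MS-275 list (3.70%) and 14 in the CXD101 list (4.12%) had a fold of 1.63 or less. The other members were above the gap seen at Immt, but the gap at their own summits was not measured. The part of this gap in the other losses was not tested.

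AP-1 matches were common around the members and were offset from the summit. Within 250 bp, 193 of 351 members of the MS-275 list held one (55.0%, 95% Wilson interval 49.8 to 60.1), as did 181 of 340 in the CXD101 list (53.2%, 47.9 to 58.5). Windows of the same length placed every 100 kb along the genome held one in 7.69%, and the members' own positions moved by 10 kb in 10.8% and 6.84%. Gained MS-275 peaks held one in 8.70% and gained CXD101 peaks in 3.87%. The lists hold changed sites only, so sites open in the vehicle that did not change could not be compared. Whether the share is particular to lost sites was thus not tested. The window of 250 bp was chosen after the data were seen. With the narrower window of 100 bp the share of members was 19.7% (15.8 to 24.1), against 3.04% in the genome windows.

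By distance, the matches were densest beside the summit and not on it. In the MS-275 list they ran at 0.95 per kb of sequence within 50 bp, 2.11 per kb at 100 to 149 bp, 1.88 per kb at 150 to 199 bp and 0.271 per kb beyond 400 bp. The CXD101 list gave 0.98, 1.94, 1.91 and 0.309 per kb in the same bins. Peaks lost with one inhibitor alone had the same shape at lower values, with 1.76 per kb for MS-275 and 1.64 per kb for CXD101 at 100 to 149 bp. Gained MS-275 peaks stayed between 0.138 and 0.239 per kb, with 0.151 within 50 bp and 0.239 at 150 to 199 bp. PU.1 matches were also sparser within 50 bp than at 150 to 199 bp. They ran at 0.633 and 0.883 per kb in members of the MS-275 list, and at 0.503 and 0.973 per kb in gained MS-275 peaks. A lower density at the summit was thus not particular to AP-1 or to lost peaks. Measured from the midpoint of the MS-275 interval, the density was instead highest at the centre, at 2.47 per kb. In the CXD101 list it was nearly level from the midpoint, with 1.63 per kb at the centre and 1.59 per kb at 150 to 199 bp. The nearest match of a member lay at a median of 142.5 bp from its summit, over the 228 members with one within 500 bp.

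**Figure D3:**
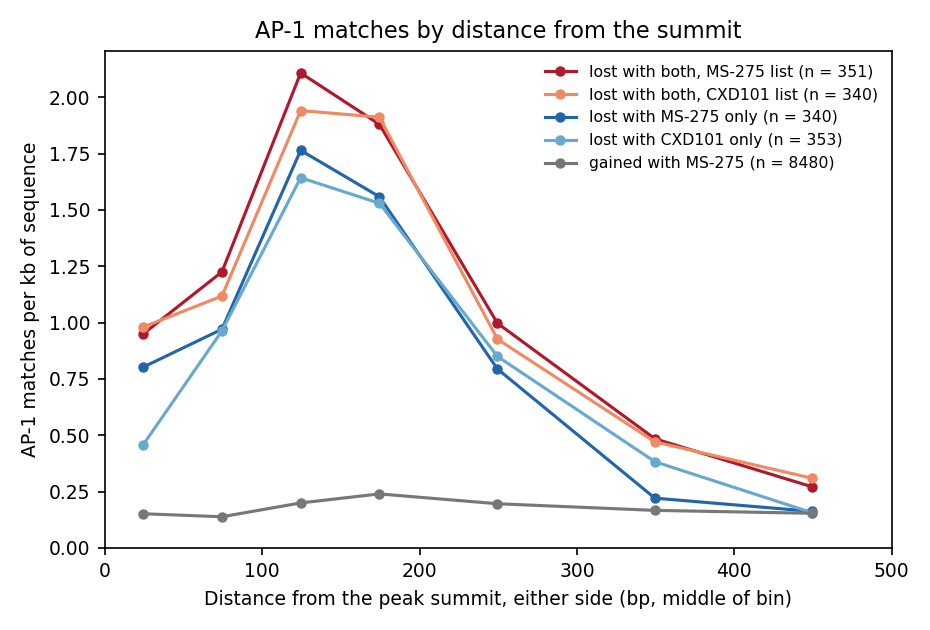
AP-1 matches per kb of sequence (y axis) by distance from the peak summit on either side (x axis, bp, points at the middle of each bin), for peaks lost with both inhibitors in each list, lost with one alone, and gained with MS-275. All 4 lost classes are highest between 100 and 199 bp, up to 2.11 per kb, and the gained peaks stay under 0.25 per kb.

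The share with an AP-1 match was also compared with the other lost peaks and among members. Summits of 1 locus lie close together and can share a match, so the intervals are narrower than the number of separate sites would give. Peaks lost with MS-275 alone held one within 250 bp in 46.5% (41.2 to 51.8), and this interval overlapped that of the members. Those lost with CXD101 alone held one in 42.5% (37.4 to 47.7), which lay just below the interval of the members of the CXD101 list. With windows of 50, 100 and 150 bp those intervals overlapped. Among the pairs, those in promoters held one in 28 of 79 (35.4%, 25.8 to 46.4) and those between genes in 54 of 85 (63.5%, 52.9 to 73.0). Pairs with a match within 250 bp had a median fold of 3.47 with MS-275 and 3.13 with CXD101, and pairs without had 2.77 and 2.56. With the centre of the match within 100 bp, over the same pairs, the order turned. The 64 pairs with a match then had medians of 3.0 and 2.89, and the 251 without had 3.21 and 2.99. These folds belong to the comparisons that chose the members.

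PU.1 (GAGGAAG) was found within 250 bp of 30.5% of members of the MS-275 list (25.9 to 35.5), against 14.5% of the genome windows, and at about that share in every other list against vehicle shown in the plot of motif shares. MAF (TGCTGAC) was found in 14.2% of members (11 to 18.3), against 7.59% of gained MS-275 peaks and 6.84% of genome windows. Peaks lost with MS-275 alone (9.41%, 6.75 to 13.0) or CXD101 alone (11%, 8.19 to 14.7) had intervals that overlapped that of the members. Its letters overlap those of an AP-1 match by up to 4 bases. NF-kB (GGANTTTCC) was at 3.99% (2.39 to 6.58) in the MS-275 list and 4.41% in the CXD101 list, against 1.47% and 0.567% of peaks lost with MS-275 or CXD101 alone. That is 14 members of the MS-275 list, and their interval overlapped that of MS-275 alone. In the CXD101 list the intervals did not overlap (2.69 to 7.15 against 0.156 to 2.04), with 15 and 2 matched peaks. With the window of 100 bp these overlapped too (1.20 to 4.57 against 0.05 to 1.59), and NF-kB was 1 of 16 motifs searched. C/EBP (TTGCNNAA) was at 18.2% of members (14.5 to 22.6), below the 28.0% of gained MS-275 peaks. The 22.1% of genome windows lay inside the interval of the members. RUNX (TGTGGTT) and IRF (GAAANNGAA) were at 16.2% and 13.1%.

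**Figure D4:**
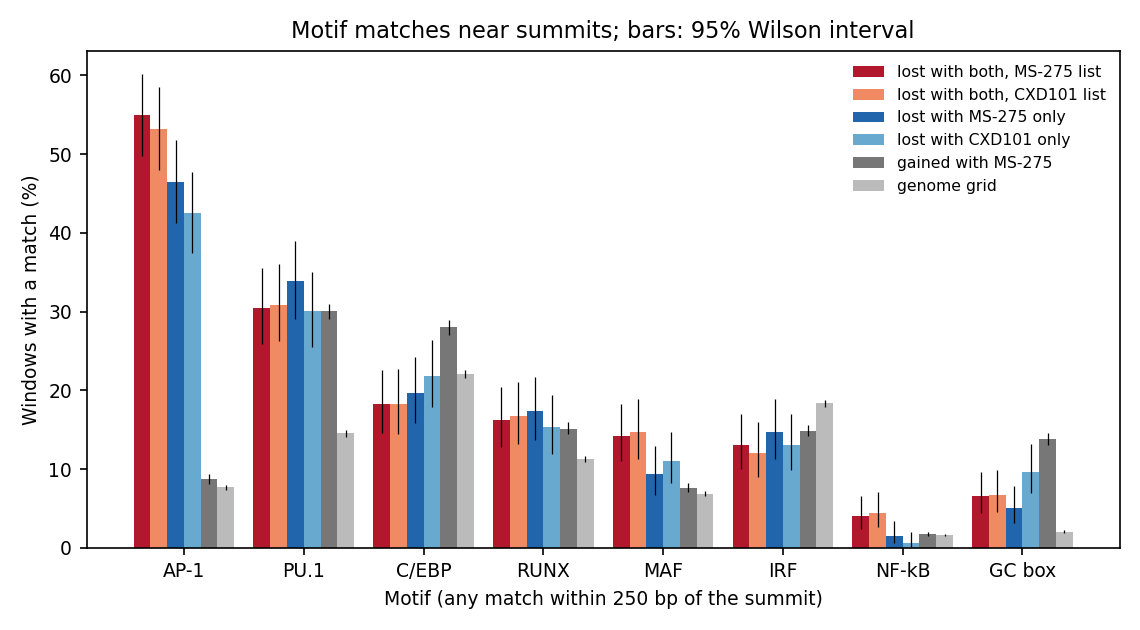
Percentage of peaks or genome windows with at least 1 match to each motif within 250 bp of the summit (y axis), for 8 motifs (x axis). Bars are the classes in the legend and error bars are 95% Wilson intervals. AP-1 stands above all genome windows and gained peaks in the lost classes, from 42.5% to 55.0%, whereas PU.1 is near 30% in lost and gained peaks alike.

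The letters next to the AP-1 core were counted at 71 distinct matches of the MS-275 list. The most frequent form, with 1 base on either side, was CTGACTCAC at 8 matches (11.3%). No form made up a large share. A cyclic AMP response element (TGACGTCA) was found within 250 bp of 1 member of the MS-275 list (0.285%), near the 0.262% of genome windows.

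Members lay in introns in 42.5% (37.4 to 47.7), between genes in 26.2%, in promoters, the 5 kb before a start site, in 24.5% (20.3 to 29.3) and in exons in 6.84% of the MS-275 list. Genome windows lay in introns in 35.5%, between genes in 46.9% and in exons in 3.28%. The promoter share was above the 14.3% of genome windows and below the 31.9% (30.95 to 32.93) of gained MS-275 peaks. It was also below the 37.4% (32.5 to 42.6) of peaks lost with CXD101 alone. Its interval overlapped that of peaks lost with MS-275 alone (19.7%, 15.8 to 24.3). The median distance to a protein-coding start site was 10449 bp, and 13.1% lay within 1 kb. Promoter members had a median of 59.5 vehicle tags and a fold of 2.84 in the MS-275 list, and intronic members 46 tags and 3.22. The limit given above for folds at high pileups holds here too. GC content had a median of 49.3%, near the 49.8% of gained MS-275 peaks and above the 41.8% of genome windows. Repeats covered at least 50% of the window in 8.26% of members, against 28.2% of genome windows.

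**Figure D5:**
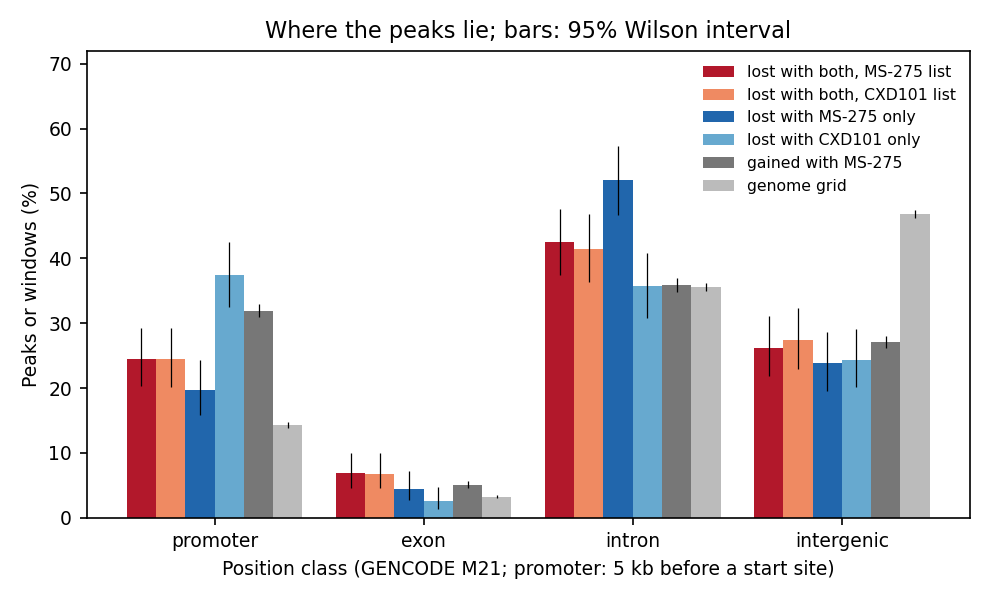
Percentage of peaks or genome windows (y axis) in promoters, exons, introns and between genes (x axis), with 95% Wilson intervals. Members of both lists are alike, with 24.5% and 24.4% in promoters, and peaks lost with CXD101 alone have the highest promoter share at 37.4%.

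The members were spread over all chromosomes analysed. Chromosome 11 held the most rows, with 34 in the MS-275 list, and chromosome X held 1, the Xiap promoter, where 6.39% of genome windows lie. Other lists were low on X too, with 1.47% of peaks lost with MS-275 alone and 1.49% of gained MS-275 peaks. In 5 places 3 summits of the MS-275 list fell within 20 kb. The widest interval, 2101 bp near Ccnf (chromosome 17, 24255559 to 24257659), held 3 summits with 73 to 81 vehicle tags and folds of 2.81 to 3.56.

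At the edge of the selection, the smallest overlap of a member with its best partner was 134 bp, at Slc37a3, with a fold of 1.52. The nearest peak outside lay 109 bp from a CXD101 lost peak, at Fam19a3, with a fold of 3.17. Of the 340 MS-275 lost peaks outside the overlap, 13 had a CXD101 lost peak within 1 kb.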

How the data were processed

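ATAC-seq libraries (3 groups of 2) were aligned by the authors to mm10 with Bowtie2, and groups were compared with MACS2 2.2.7.1 (no model, shift of 0) on pooled libraries. The deposited lists hold a linear ratio, the fold enrichment, and −log10 p-values and q-values from the authors' Poisson test. The methods name a limit on the p-value, whereas the lowest −log10 q-value among members was 1.30, a q-value of 0.05. MACS2 extends treated tags in one direction from the cut and control tags to both sides, so both pileups differ in shape around a sharp peak.

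Vehicle tags and inhibitor levels were solved from the fold and p-value (pseudocount 1, relative tolerance 2e-05), with 1 solution at each of 1384 lost peaks. The level is the highest of several averages and so an upper estimate. It was a whole number of tags at 56.1% and the genome background at 6.84% of members of the MS-275 list. The pools were 1.14 times as deep as the vehicle pool for both inhibitors, and the reads per library were not used. Partner summits were nearest to each other both ways. Gene positions came from GENCODE M21 and sequence from GRCm38.p6, the assembly of mm10.

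Percentages have 95% Wilson intervals that describe counting error alone, and peaks were not used as replicates in any test. Where no member was counted, 3 counts set the limit. The scripts were tested on simulated data. Named sites were the 12 pairs with the highest smaller −log10 p-value, the 10 with the highest smaller fold, the 8 such within 1 kb of a start site, the 4 highest and 4 lowest ratios of levels, pairs in listed genes, and places with 3 members within 20 kb, of which 1 item is not reported here. The members, lists and tests were chosen with earlier results of these data known. Python 3.11.15, NumPy 2.4.6, pandas 2.3.3, SciPy 1.17.1 and matplotlib 3.10.9 were used. Tool names and versions of the authors are from the submitters' processing notes.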

Additional observations from a re-analysis of the deposited data

Results flagged for a closer look

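Between the inhibitors, a difference was called at 2 members, the promoters of Immt and Xiap, where MS-275 exceeded CXD101 by the authors' MACS2 test on pooled libraries. The fold was 1.72 with a −log10 q-value of 8.0 at Immt, and 1.37 with 1.57 at Xiap, the latter near the limit of the lists. In the lists against vehicle the MS-275 and CXD101 levels at these summits were nearly equal, at 105 and 99.7 for Immt and 99.7 and 100.3 for Xiap. The part of the treated and control sides of the calling in this difference was not tested.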

How the results depend on the processing

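No paired analysis was possible because each deposited value stands for a pool of 2 libraries, and for the same reason leaving out each library could not be run. Of 40 alternatives for the main values, 32 left the value within 1.5 times for a count or within the interval of the reported value otherwise, and 8 moved it. A fold of at least 3 in both lists left 145 members in the MS-275 list and 139 in the CXD101 list. A q-value under 0.001 raised the median fold to 3.48 and 3.12, as fewer weak peaks remained. A promoter set at 1 kb either side of a start site held 17.9% of members. The AP-1 share was 9.12% with a window of 50 bp, 33.6% with 150 bp and, added after the data were seen, 55.0% with 250 bp, which follows from the longer sequence and from the matches lying beside the summit. Keeping rows whose fold exceeded the gap at Immt, also added later, left 338 and 326 members. Members held as few as 18 vehicle tags, and no alternative depth was tried.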
